A study of Mus musculus with 8 samples.

Results

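A set of 9 microRNA genes known from muscle biology was examined for acetylation of histone H3 at lysine 56 (H3K56ac) in muscle stem cells (MuSCs), which repair skeletal muscle after injury. The 9 members were Mir206, Mir133b, Mir1a-1, Mir1a-2, Mir133a-1, Mir133a-2, Mir208b, Mir31 and Mir489, out of 2202 microRNA genes that GENCODE annotates on the assembled mouse chromosomes. They were chosen by name, and the H3K56ac peaks within 20 kb of each hairpin were collected. The hairpins lie at 6 loci, because Mir206 neighbours Mir133b, Mir1a-1 neighbours Mir133a-2, and Mir1a-2 neighbours Mir133a-1. Mir206, Mir133b, the Mir1a and Mir133a genes and Mir208b are grouped here as 7 differentiation microRNA genes, and Mir31 and Mir489 as 2 MuSC microRNA genes. That grouping rests on prior knowledge of where the microRNAs act and not on any value in these data.

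The study mapped the mark with ChIP-seq, which sequences the DNA bound to immunoprecipitated histones, in freshly isolated MuSCs of C57BL/6 mice. There were 8 libraries in 4 groups of 2, namely H3K56ac and input chromatin from Control mice and from Sirt6mKO mice. The labels give Control mice as wild type, and the study used littermates as controls, which in other experiments of the study were Sirt6 fl/fl without the Cre. Sirt6mKO mice carried Sirt6 fl/fl alleles and a constitutively active Cre under Pax7 control (Pax7-ICNCre), so that the deletion follows Pax7 expression in the muscle lineage. SIRT6 is a deacetylase that removes H3K56ac. The mice were males aged 12 to 16 weeks.

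The material analysed was 1 merged list of 105600 peaks, with a chromosome, start and end for each. It held 0 columns of values per sample, so library depth cannot be read from it. A peak may come from Control cells, from Sirt6mKO cells or from both, and these cannot be told apart. Every value below is a position, a width or a share of bases, all of the merged list, with no replicate spread. No comparison of Sirt6mKO with Control was made.

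A microRNA gene is transcribed as part of a longer RNA, often the transcript of a host gene, and the hairpin is cut out by Drosha and Dicer to leave a short mature RNA. The mature RNA pairs with messenger RNAs chiefly through its seed, the bases near its 5′ end, and lowers their translation or stability. In skeletal muscle, miR-1, miR-206 and miR-133 are known as microRNAs of differentiation that are induced by myogenic factors and by MEF2 and SRF. miR-208b is made from an intron of a slow myosin gene. In quiescent MuSCs, miR-31 is known to hold back translation of Myf5 messenger RNA, and miR-489 is known to repress Dek. H3K56ac is a mark of active promoters and enhancers, and a peak of it beside a hairpin is not a measure of the mature RNA.

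The mature sequences show which of the microRNAs printed could share targets. They are printed 5′ to 3′ as RefSeq gives them for GRCm38.p6, with bases 2 to 8, the seed, in capitals. Entries were printed for 5 of the 9 members, along with Mir208a and Mir499, the relatives of Mir208b, and Mir653, which neighbours Mir489. Mir1a-1, Mir1a-2, Mir133a-1 and Mir133a-2 are named only. The RefSeq sequences used held no miR-1a-3p and no entry for Mir1a-2, Mir133a-1 or Mir133a-2. Seed sharing with miR-1 and miR-133a was therefore not compared.
miR-206-3p: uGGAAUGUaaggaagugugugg
miR-133b-3p: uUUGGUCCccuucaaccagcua
miR-208b-3p: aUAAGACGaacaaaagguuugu
miR-208a-3p: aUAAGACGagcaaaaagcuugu
miR-499-5p: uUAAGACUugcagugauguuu
miR-31-5p: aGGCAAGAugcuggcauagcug
miR-489-3p: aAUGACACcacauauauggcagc
miR-653-5p: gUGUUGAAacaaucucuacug

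Among the microRNAs printed, only miR-208b-3p and miR-208a-3p had the same seed, UAAGACG. They were alike at 19 of 22 bases counted from the 5′ end. The seed of miR-499-5p, UAAGACU, matched UAAGACG at 6 of 7 bases. miR-206-3p and miR-133b-3p come from 1 locus but were alike at 1 of 7 seed bases. The seeds of the MuSC microRNAs miR-31-5p and miR-489-3p were also alike at 1 of 7 bases. Those of miR-206-3p and miR-31-5p, from different groups, were alike at 4 of 7. The seed of miR-206-3p, GGAAUGU, was also held by miR-6349 and miR-6382. The seed of miR-489-3p, AUGACAC, was otherwise held by miR-425-5p alone among the 1679 mature entries available, an incomplete set.

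Of the 9 members, 6 had at least 1 peak within 20 kb, against 61.7% of all 2202 microRNA genes (1359 genes). The members' count was thus near the background share. These 6 were Mir206, Mir133b, Mir1a-2, Mir133a-1, Mir208b and Mir489, and 16 different peaks lay within 20 kb of them. Mir1a-1, Mir133a-2 and Mir31 had no peak in that window, as did 843 microRNA genes in all. One hairpin, that of Mir206, was itself overlapped by a peak, against 17.6% of all microRNA genes (387 genes). Inside the 20 kb limit, the largest distance from a hairpin to its nearest peak was 2671 bp, at Mir133b, and outside it the nearest peaks lay 31343 bp from Mir1a-1, 40674 bp from Mir133a-2 and 41882 bp from Mir31.

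**Figure D1:**
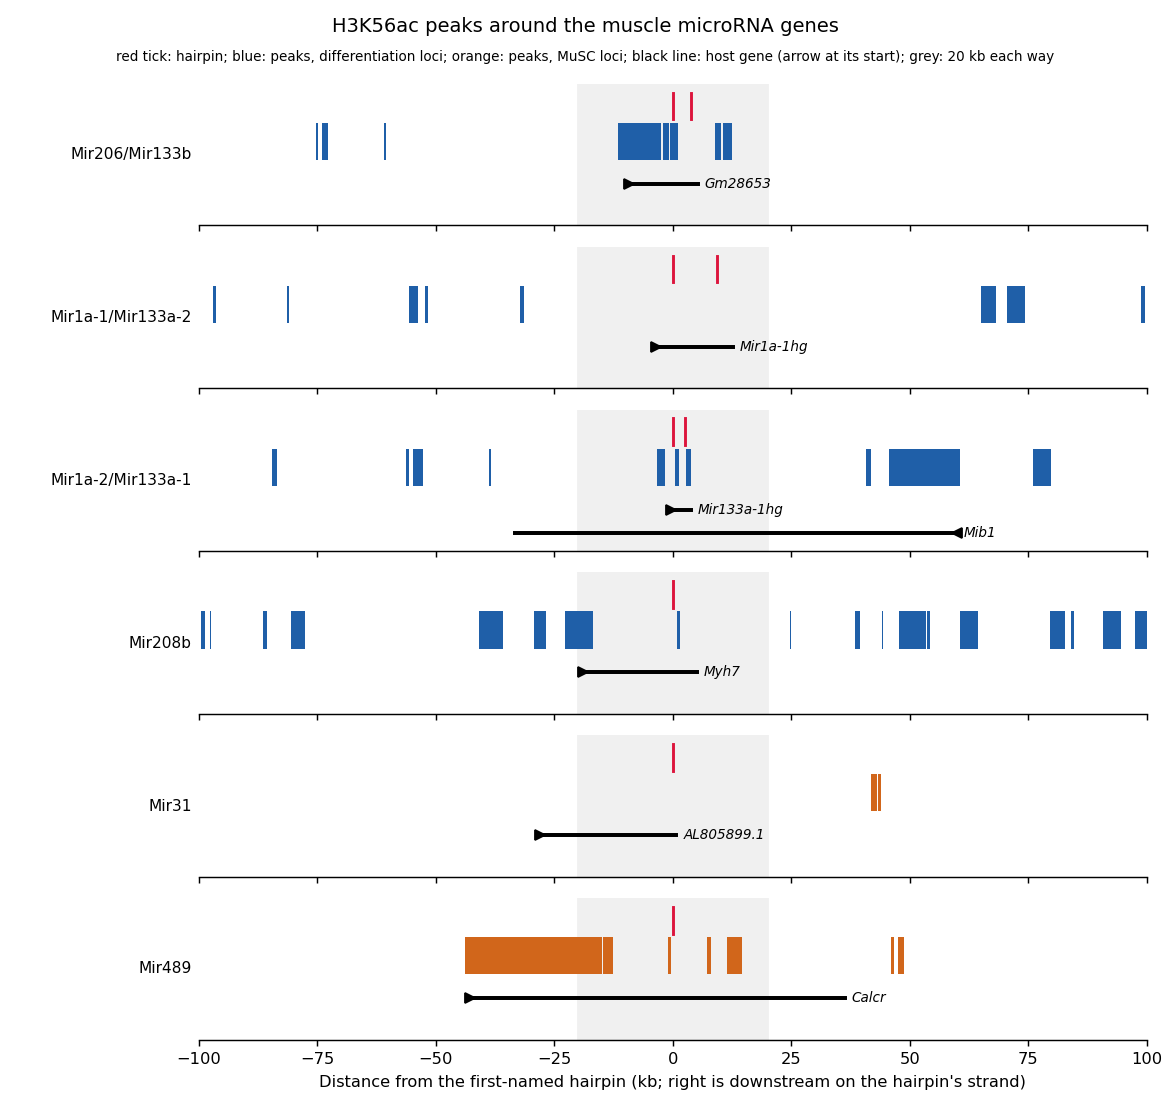
Each row is 1 locus, with the distance from its first-named hairpin in kb on the horizontal axis, from 100 kb upstream to 100 kb downstream on the hairpin's strand. Filled boxes are H3K56ac peaks, red ticks are hairpins, black lines are host genes with an arrow at the start, and the grey band is 20 kb each way. Peaks crowd the start of Gm28653 and of Calcr, while the grey bands of Mir1a-1/Mir133a-2 and Mir31 hold none.

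The covered share, the percentage of the bases within 20 kb of a hairpin that lie in a peak, ordered the members. It was 37.6% for Mir206 and 37.6% for Mir133b, 29.7% for Mir489, 9.42% for Mir208b, 8.61% for Mir1a-2 and 8.61% for Mir133a-1, and 0% for Mir1a-1, Mir133a-2 and Mir31. Over all microRNA genes the median was 4.91%, the upper quartile 19.9% and the 90th percentile 36.3%. Mir206 and Mir133b thus stood above 90.9% and 90.8% of microRNA genes, Mir489 above 84.8%, and the 3 middle members above 57.9% to 59.3%. The 5 highest shares in the genome belonged to Mir466q (99.8%), Mir708 (97.7%), Mir3971 (96.0%), Mir196a-2 (95.0%) and Gm22709 (91.0%). Mir708, a microRNA of MuSCs that is induced by Notch signalling, was the only one of these 5 on the lists of muscle and other microRNAs used here. The genes ranked just above Mir489 were Mir5125 (29.8%), Mir30a (29.8%) and Gm22692 (29.9%), and those just below were Mir29a (29.6%), Mir8120 (29.5%) and Mir1938 (29.5%). Mir31 shares its rank with all genes at 0, so it has no such neighbours.

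**Figure D2:**
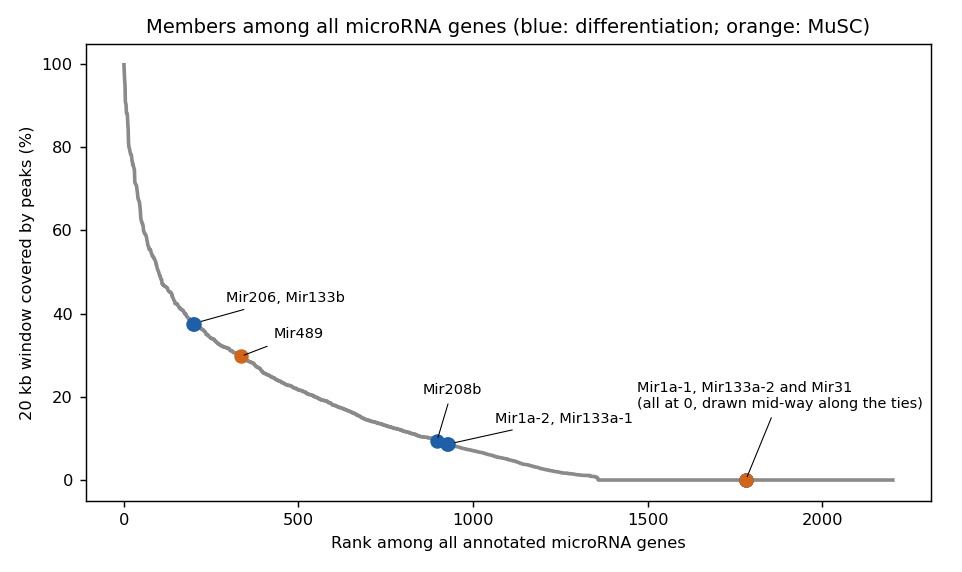
All 2202 microRNA genes are ranked along the horizontal axis by the percentage of their 20 kb window that peaks cover, which is on the vertical axis. Blue points are differentiation members and orange points MuSC members. Mir206 and Mir133b sit on the steep part at 37.6%, Mir489 follows at 29.7%, and 3 members lie on the flat stretch at 0.

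The locus of Mir206 and Mir133b was the most densely covered. Mir206 lies at chr1:20679010-20679082 and Mir133b at chr1:20682769-20682887, both on the plus strand of GRCm38. Their host is the long non-coding RNA gene Gm28653 (ENSMUSG00000099906.2, chr1:20669882-20684298), which RefSeq names Lincmd1, the linc-MD1 of differentiating muscle cells. Mir206 lies in intron 2 of its 3-exon transcript and in the exon of its single-exon transcript, whose start is 13 bp before the hairpin. Mir133b lies in exon 3 of the longer transcript. There were 5 peaks within 20 kb. The widest, 9112 bp at chr1:20667426-20676537, covered the start of the 3-exon transcript with exons 1 and 2, and 1365 of the 105600 peaks were wider. A peak of 1204 bp followed, and then 1 of 1536 bp at chr1:20678562-20680097 that covered the Mir206 hairpin and the start of the single-exon transcript. A pair of peaks of 1323 and 1909 bp lay beyond the end of Gm28653, 5121 and 6813 bp downstream of Mir133b.

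Most of the coverage was on the upstream side. In the 20 kb before the hairpin, 53.8% of the bases lay in a peak for Mir206 and 59.3% for Mir133b, against 21.2% and 16.2% in the 20 kb after it. Peaks covered 65.2% of Gm28653. Among 8813 lincRNA and antisense genes, 191 had a wider promoter peak, where a promoter peak is 1 within 3 kb of an annotated start.

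The sequence around Mir206 is shown because it is the only member hairpin inside a peak. The 300 bases chr1:20678897-20679196, plus strand, lie wholly in the 1536 bp peak, and the hairpin of 73 bases is in capitals. The hairpins of 1005 microRNA genes in the RefSeq table were identical to the genome sequence at their coordinates, of 1005 compared.
Mir206: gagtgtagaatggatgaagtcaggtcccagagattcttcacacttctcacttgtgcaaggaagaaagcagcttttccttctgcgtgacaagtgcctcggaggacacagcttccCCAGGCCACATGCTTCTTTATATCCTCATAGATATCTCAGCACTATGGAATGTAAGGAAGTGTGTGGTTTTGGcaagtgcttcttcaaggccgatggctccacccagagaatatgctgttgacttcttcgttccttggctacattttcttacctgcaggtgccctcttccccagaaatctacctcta

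A second plus-strand sequence, the RefSeq promoter of Lincmd1 at chr1:20669632-20669931, holds the 250 bases before the start and the first 50 after it, and all 300 bases lie in the 9112 bp peak. It is shown because this promoter is the start of the host of both hairpins. The capitals mark a MEF2-type site and the myogenic E-box CAGCTG, found on both strands by a search of letters.
Lincmd1: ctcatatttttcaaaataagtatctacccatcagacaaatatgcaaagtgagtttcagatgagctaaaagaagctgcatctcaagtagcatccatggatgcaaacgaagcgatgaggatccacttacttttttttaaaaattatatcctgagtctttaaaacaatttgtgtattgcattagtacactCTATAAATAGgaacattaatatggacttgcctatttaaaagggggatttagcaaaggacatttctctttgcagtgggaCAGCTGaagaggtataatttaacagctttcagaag

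The E-box began at base 266 from the 5′ end and the MEF2-type match at base 188, with the annotated start at base 251. The E-box letters were present in 16.3% of 32851 RefSeq promoters of the same length, and the MEF2-type letters in 3.19%. The AP-1 letters TGANTCA (7.81% of promoters), the RBPJ letters TGGGAA (25.6%) and the CArG box of SRF (1.63%) were not in this window. The GC content was 34.3%, against a median of 52.7% over all promoters, with 2 CpG places against a median of 7. Over the centre 300 bases of 102175 peaks, 16.9% held the E-box letters. Among 13 peaks near the members in the same search, 1 held the E-box letters, 2 the RBPJ letters (27.4% of all peak centres), and 0 the AP-1 (8.88%), MEF2 (4.25%) or CArG (1.36%) letters. Matches of different motifs did not overlap in any sequence shown, and a match of letters is a description, not a bound site.

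The copies of miR-1 and miR-133a at 2 other loci differed in their surroundings. Mir1a-1 (chr2:180389048-180389124, plus strand) and Mir133a-2 (chr2:180398379-180398482, plus strand) had no peak within 20 kb. GENCODE places no gene over them, and RefSeq places both in the long non-coding RNA gene Mir1a-1hg (chr2:180385604-180401802, plus strand). No base of Mir1a-1hg lay in a peak, and the nearest peak to its start was 27899 bp away. The nearest peak upstream, chr2:180356940-180357704, was 765 bp wide, and the nearest downstream of Mir133a-2, chr2:180454168-180457219, was 3052 bp wide and 55685 bp away. The stretch of 96463 bp between these peaks held none, and 3.56% of all 105579 gaps between neighbouring peaks were at least as long. That share counts gaps and not bases. Among the 2202 microRNA genes, 1472 had a closer peak than Mir1a-1 and 1529 a closer one than Mir133a-2. The nearest protein-coding gene was Gata5, 54348 bp away, which encodes a transcription factor of heart and gut.

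The RefSeq promoter of Mir1a-1hg, chr2:180385354-180385653 on the plus strand, is shown for contrast with Lincmd1, since it lies in no peak. The capitals mark an E-box CAGCTG at base 118, again with the start at base 251.
Mir1a-1hg: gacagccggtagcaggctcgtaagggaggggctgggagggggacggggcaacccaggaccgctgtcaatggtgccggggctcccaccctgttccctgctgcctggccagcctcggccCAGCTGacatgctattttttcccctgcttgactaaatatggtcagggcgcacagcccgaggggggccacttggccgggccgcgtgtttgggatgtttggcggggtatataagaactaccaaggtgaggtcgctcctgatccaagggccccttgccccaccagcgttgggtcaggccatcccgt

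Both promoters thus held the E-box letters, 1 inside a peak and 1 outside. The Mir1a-1hg promoter had a GC content of 64.3% and 15 CpG places, against 34.3% and 2 for Lincmd1.

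Mir1a-2 (chr18:10785481-10785552, minus strand) and Mir133a-1 (chr18:10782909-10782976, minus strand) had 3 peaks within 20 kb. Both lie in intron 1 of the antisense RNA gene Mir133a-1hg (chr18:10781723-10785883) and, on the opposite strand, in intron 12 of the 21-exon transcript of Mib1. Mib1 encodes a ubiquitin ligase that activates Notch ligands in the signal-sending cell. The peaks were narrow, at 942, 931 and 1577 bp, with a median width of 974 bp over the whole list. They lay within 5 kb of the hairpins, interleaved with them: the peak of 942 bp was 210 bp downstream of Mir133a-1, that of 931 bp lay between the hairpins and 397 bp from Mir1a-2, and that of 1577 bp was 1657 bp upstream of Mir1a-2. Peaks covered 45.0% of Mir133a-1hg. None overlapped its annotated start, and the nearest was 799 bp away. The start of Mib1 lay in a wide peak of 15001 bp that ended before the 20 kb window, and 168 of 21938 protein-coding genes had a wider promoter peak.

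The covered share of these hairpins therefore fell with distance at first. It was 34.3% within 5 kb of Mir1a-2 and 26.2% within 5 kb of Mir133a-1, and 17.2% within 10 kb of either. The same products, miR-1 and miR-133a, thus come from 1 locus with peaks beside the hairpins and 1 locus with none within 20 kb, and the merged list does not say which copy is transcribed.

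Mir208b (chr14:54975700-54975776, minus strand) lies in intron 31 of the 41-exon transcripts of Myh7. Myh7 encodes the slow, type I myosin heavy chain. RefSeq also places the long non-coding RNA gene Gm31251 over this hairpin. There were 2 peaks within 20 kb, both over Myh7. The nearer, 611 bp wide at chr14:54974280-54974890, lay 809 bp downstream and overlapped exon 34, and it also overlapped the last exon of the antisense RNA gene Mhrt. The farther, 3304 bp wide at chr14:54992613-54995916, covered the Myh7 start, 16836 bp upstream. Of the 20 kb before the hairpin, 15.8% lay in a peak, against 3.06% of the 20 kb after it. Peaks covered 11.0% of Myh7, and 64.3% of protein-coding genes had a narrower promoter peak or none. Of its relatives, Mir208a had a covered share of 4.17% and Mir499 one of 10.3%.

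Mir489 (chr6:3721897-3722003, minus strand) was the more densely covered MuSC member. It lies in intron 4 of the 16-exon transcript of Calcr, the calcitonin receptor gene and a marker of quiescent MuSCs. There were 6 peaks within 20 kb, and all overlapped Calcr (ENSMUSG00000023964.15, chr6:3685680-3764714). The nearest, 705 bp wide at chr6:3722271-3722975, lay 267 bp upstream and overlapped exon 4. The widest, 25343 bp at chr6:3740485-3765827, covered the start of every annotated Calcr transcript and exons 1 to 3, and began 18481 bp upstream of the hairpin. Only 43 of 105600 peaks were wider. Peaks of 3618 and 2270 bp lay between it and the hairpin, and peaks of 727 and 3056 bp lay downstream. Peaks covered 43.8% of Calcr, and 30 protein-coding genes had a wider promoter peak.

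The window cut off most of the widest peak. Within 10 kb the covered share of Mir489 was 7.12%, within 20 kb 29.7% and within 50 kb 37.5%. Upstream, towards the Calcr start, 40.6% of 20 kb lay in a peak, against 18.9% downstream.

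The RefSeq table held a pair of Calcr starts, and both promoters lay wholly in the 25343 bp peak. The one at chr6:3763574-3763873, minus strand, is shown as the promoter under the widest peak near any member. None of the 5 motifs searched was in it, so it has no capitals.
Calcr: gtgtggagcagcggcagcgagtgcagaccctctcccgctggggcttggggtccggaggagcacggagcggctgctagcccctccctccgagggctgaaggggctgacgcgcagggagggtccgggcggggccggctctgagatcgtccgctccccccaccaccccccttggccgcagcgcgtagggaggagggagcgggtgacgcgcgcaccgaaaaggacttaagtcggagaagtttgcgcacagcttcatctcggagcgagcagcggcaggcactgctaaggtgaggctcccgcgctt

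This promoter had a GC content of 70.0% and 29 CpG places. The other Calcr promoter, chr6:3764664-3764963, had 47.3% and 4.

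Mir31 (chr4:88910557-88910662, minus strand) was the member farthest from any peak. It lies in exon 3 of the 3 exons of the lincRNA gene AL805899.1 (ENSMUSG00000117123.1, chr4:88909855-88938521), which RefSeq names Gm49890. No base of that gene lay in a peak, and its GENCODE start was 69846 bp from the nearest one. The nearest peak to the hairpin, 1186 bp wide at chr4:88867489-88868674, lay 41882 bp downstream. Upstream the next peak was 190106 bp away. The stretch of 232094 bp between these peaks held no other, and 1.38% of all gaps between neighbouring peaks were at least as long. That share counts gaps and not bases, and a long gap holds more places than a short one. Among the 2202 microRNA genes, 1547 had a closer peak than Mir31, and the upper quartile of the distance was 77605 bp. The nearest protein-coding gene was Ifne, an interferon gene, 30355 bp away.

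The RefSeq promoter of Gm49890, chr4:88941993-88942292 on the minus strand, is shown as the start of the host of Mir31, 73318 bp from the nearest peak. The capitals mark the RBPJ letters TGGGAA, or TTCCCA on the other strand, at bases 139 and 191.
Gm49890: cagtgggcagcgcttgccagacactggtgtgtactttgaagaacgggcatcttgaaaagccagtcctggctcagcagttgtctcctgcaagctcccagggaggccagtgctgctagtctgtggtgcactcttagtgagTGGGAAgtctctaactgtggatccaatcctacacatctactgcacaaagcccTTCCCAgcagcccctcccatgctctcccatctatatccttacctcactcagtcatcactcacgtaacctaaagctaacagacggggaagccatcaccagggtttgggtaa

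Set side by side, the differentiation and MuSC members did not separate by the presence of a merged H3K56ac peak within 20 kb. Of the 7 differentiation genes 5 had a peak within 20 kb, and of the 2 MuSC genes 1 had. Counted by locus, with the window taken 20 kb out from the outermost hairpins, the covered share was 34.4% at Mir206/Mir133b, 9.42% at Mir208b, 8.09% at Mir1a-2/Mir133a-1 and 0% at Mir1a-1/Mir133a-2, with a median of 8.75%. Mir489 at 29.7% lay between the first and second of these, and Mir31 at 0% equalled the lowest. With 4 and 2 loci and a merged list, no test was made of the difference between the groups.

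**Figure D3:**
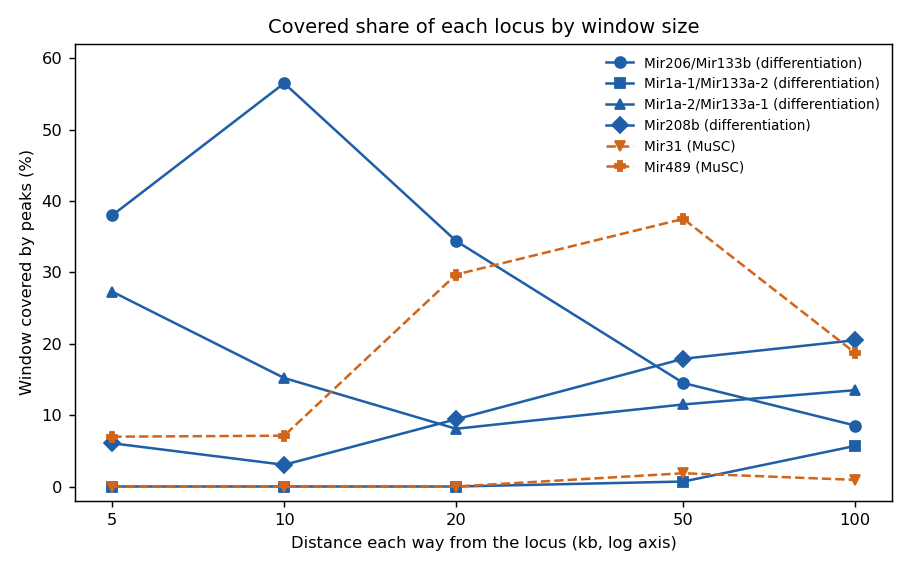
The percentage of bases in a peak (vertical axis) is plotted for each locus against the distance taken each way, in kb on a log axis. Solid blue lines are differentiation loci and dashed orange lines MuSC loci. The Mir206/Mir133b locus peaks at 56.5% at 10 kb and falls to 8.54% at 100 kb, whereas Mir489 reaches 37.5% at 50 kb, and Mir31 stays at or below 1.86%.

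The order of the loci depended on the distance taken. At 5 kb the Mir206/Mir133b locus led with 38.0%, followed by Mir1a-2/Mir133a-1 with 27.3%, Mir489 with 6.98% and Mir208b with 6.06%. At 50 kb Mir489 led with 37.5%, followed by Mir208b with 17.9% and Mir206/Mir133b with 14.5%. At 100 kb Mir208b led with 20.5%, and 21 peaks lay within that distance of it, against 9 at Mir206/Mir133b, 10 at Mir1a-2/Mir133a-1, 8 at Mir489, 9 at Mir1a-1/Mir133a-2 and 2 at Mir31. Mir31 had the lowest covered share at 100 kb, 0.930%.

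The annotation around a hairpin also differed among the members. Of microRNA genes inside a protein-coding gene on the same strand, such as Mir489 and Mir208b, 72.0% of 969 had a peak within 20 kb, with a median covered share of 10.4%. Of those inside a non-coding gene on the same strand, 68.9% of 164 had one, with a median of 7.18%. That group held Mir206, Mir133b, Mir1a-2 and Mir133a-1 as well as Mir31. Of those between GENCODE genes, such as Mir1a-1 and Mir133a-2, 43.2% of 750 had one, with a median of 0%.

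Other microRNAs known from muscle, myoblasts or MuSCs had a higher median covered share than the members. All 22 on that list had a peak within 20 kb, against 61.7% of all microRNA genes. A peak overlapped 10 of the 22 hairpins, against 17.6% of all microRNA genes. Some of the 22 are neighbours that share peaks, such as Mir195a with Mir497a and Mir214 with Mir199a-2, so they are not separate loci. The median covered share was 30.0% (1.11% to 97.7%), against 8.61% for the members and 4.91% for all microRNA genes. Of the 1032 microRNA genes with a RefSeq sequence entry, 75.4% had a peak within 20 kb, more than in the annotation as a whole. Mir708 (97.7%), Mir214 (81.3%), Mir27b (79.5%), Mir199a-2 (76.7%) and Mir125b-1 (58.1%) led the list, and 10 of the 22 exceeded Mir206. The X-linked Mir322 (1.26%) and Mir503 (1.26%), and Mir127 (1.11%) and Mir431 (1.11%) of the imprinted Dlk1-Dio3 region, were lowest.

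MicroRNAs that mark other cell types gave a reference for the sort. The sort removed Sca1, CD45 and CD31 positive cells and then kept cells with MuSC surface markers or a fluorescent Pax7-based reporter. The study reports that its sorted cells, when analysed again, were not fully pure. Of 30 microRNA genes of other cell types, 26 had a peak within 20 kb. The share was 61.7% for all microRNA genes and 75.4% for those with a RefSeq sequence entry. The median covered share of the 30 was 7.69%, against 4.91% over all. The smooth muscle pair Mir143 and Mir145a (61.6% each) and the lymphocyte microRNA Mir150 (49.0%) were highest. The endothelial Mir126a had 21.2%. Mir223 of myeloid cells, Mir122 of liver, and Mir216a and Mir217 of exocrine pancreas had no peak within 20 kb. Mir206 and Mir133b exceeded 27 of the 30, because 3 had a higher share, and Mir489 was likewise below 3. Peaks near microRNA genes were thus not limited to those of the muscle lineage, and a part of other cells in this was not tested.

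**Figure D4:**
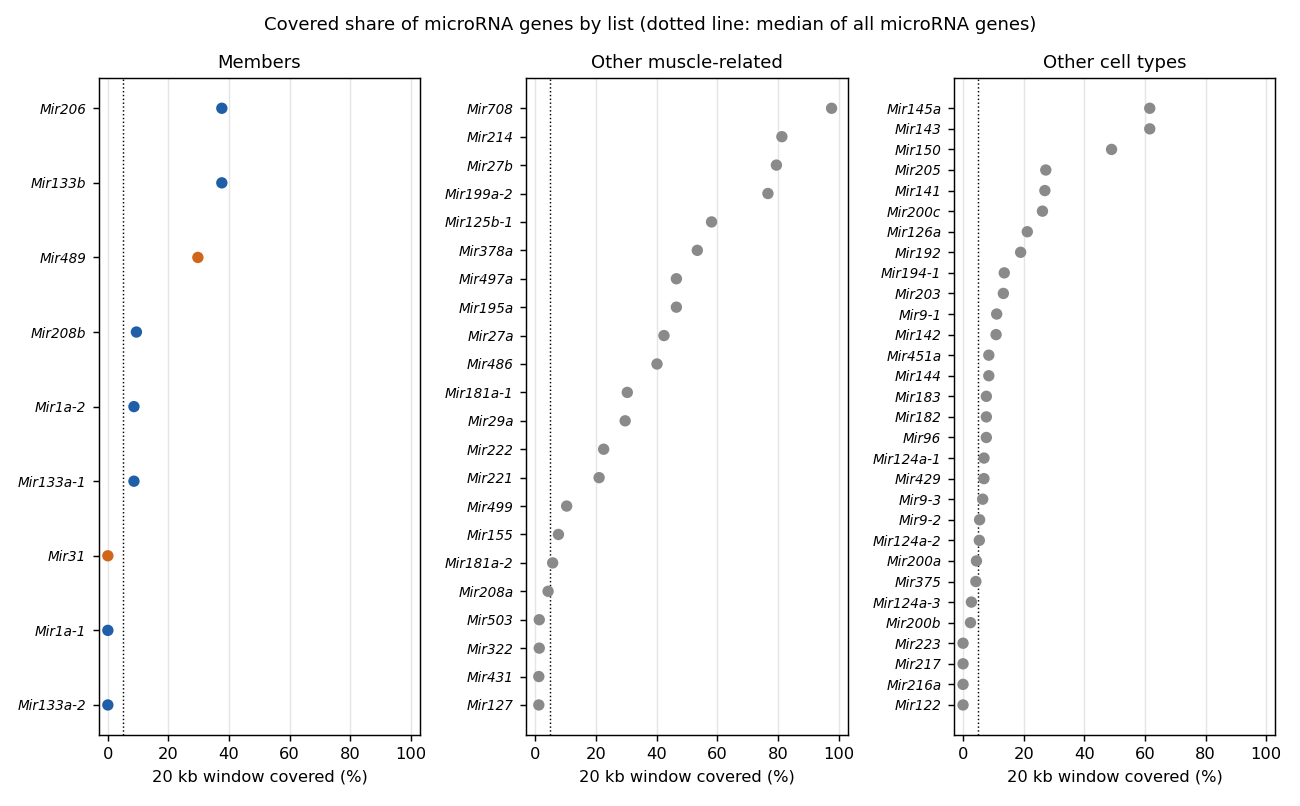
The percentage of the 20 kb window in a peak is on the horizontal axis, with 1 point for each microRNA gene. The panels hold the 9 members (blue, differentiation; orange, MuSC), 22 other muscle-related genes and 30 genes of other cell types, and the dotted line is the median of all microRNA genes, 4.91%. The muscle-related panel reaches 97.7%, while the members end at 37.6%.

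The host genes are compared here by their promoter peaks. A promoter peak was present at 67.8% of coding genes (14872 of 21938) and, of lincRNA and antisense genes 40.3% (3551 of 8813). The coding hosts Calcr, Mib1 and Myh7 and the non-coding hosts Gm28653 and Mir133a-1hg had one, while AL805899.1 and Mir1a-1hg had none. The widest measured 25343 bp at Calcr, 15001 bp at Mib1, 9112 bp at Gm28653, 3304 bp at Myh7 and 1577 bp at Mir133a-1hg. The median over coding genes that had one was 3430 bp. Calcr is itself a gene known from MuSCs, and the 4 others examined had promoter peaks of 7972 to 30239 bp, with Pax7 at 21301 bp, Vcam1 at 12012 bp, Cdh15 at 7972 bp and Myf5 at 30239 bp. Myh7 is itself a gene of muscle fibres, and the 6 other fibre genes examined had promoter peaks from 854 bp at Acta1 to 4349 bp at Myh1. The promoter peak of Gm28653 was thus wider than those of all 7 fibre genes. Among the MuSC genes, it was wider than that of Cdh15 and narrower than those of Vcam1, Pax7, Calcr and Myf5.

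Genes listed here as targets of these microRNAs were examined together with lists of regulators and processing genes. The lists do not hold every known target, and they were chosen with earlier results of these data known. A promoter peak was not particular to the targets among them. All 17 target genes had a promoter peak, as did all 10 regulators of muscle transcription and all 9 genes of microRNA processing, 33 different genes in all, against 67.8% of coding genes. In 7 of the 33 it spanned 10 kb or more, against 568 of the 14872 coding genes with a promoter peak (2.59% of all coding genes). These were the targets Myf5 (30239 bp), Hdac4 (23475 bp), Notch3 (22371 bp), Pax7 (21301 bp) and Utrn (10610 bp), and the regulators Mef2d (17348 bp) and Myf6 (30239 bp). Myf5 and Myf6 neighbour each other and share 1 peak, so that these 7 genes rest on 6 peaks. The widest peak near any start was taken, which favours genes with many starts. Utrn had 15 promoter peaks and Hdac4 12, while Mef2d had 2 and Myf5, Myf6, Notch3 and Pax7 had 1 each. Myf5, the target of miR-31, encodes a myogenic factor that is transcribed in quiescent MuSCs. Pax7, a target of miR-206 and miR-1, encodes the factor that defines MuSCs, and Hdac4 a class II deacetylase that restrains MEF2. Notch3 encodes a receptor of the Notch pathway, and Utrn utrophin, the relative of dystrophin.

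Other targets had narrower promoter peaks. Dek, the target of miR-489, encodes a chromatin protein of proliferating cells and had a widest promoter peak of 5335 bp. Srf had 8139 bp, Ccnd1 7559 bp, Fstl1 6999 bp and Igf1 5833 bp. The median was 5833 bp for targets, against 3430 bp over coding genes with a promoter peak. Below the latter lay 7 of the 17 targets, namely Pax3 with 3282 bp, Nfatc4 with 3242 bp, Pola1 with 2966 bp, Gja1 with 2758 bp, Prdm16 with 2453 bp, Ccnd2 with 1061 bp and Hmgb3 with 627 bp.

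Among the regulators, the narrowest promoter peaks were at Mef2c and Myog. Myog, which drives terminal differentiation, had 1581 bp, and Mef2c, a MEF2 factor, 1257 bp. Other factors of the same families had wide ones, with 30239 bp at Myf6, in the peak shared with Myf5, and 17348 bp at Mef2d. Myod1, the determination factor, had 2720 bp, and 96.4% of its gene body lay in a peak. Mef2a had 4735 bp and Rbpj, the Notch effector, 7539 bp. The median over the 10 regulators was 7839 bp.

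The genes that make and use mature microRNAs had medium peaks. Drosha, the nuclear nuclease, had 2954 bp and its partner Dgcr8 3365 bp. Xpo5, the exporter of precursors, had 4582 bp, and Dicer1, the cytoplasmic nuclease, 7776 bp with its partner Tarbp2 at 3364 bp. Of the Argonaute genes, Ago2 was widest at 8858 bp, followed by Ago4 at 5539 bp, Ago3 at 4998 bp and Ago1 at 2742 bp. Their median was 4582 bp, and none reached 10 kb.

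**Figure D5:**
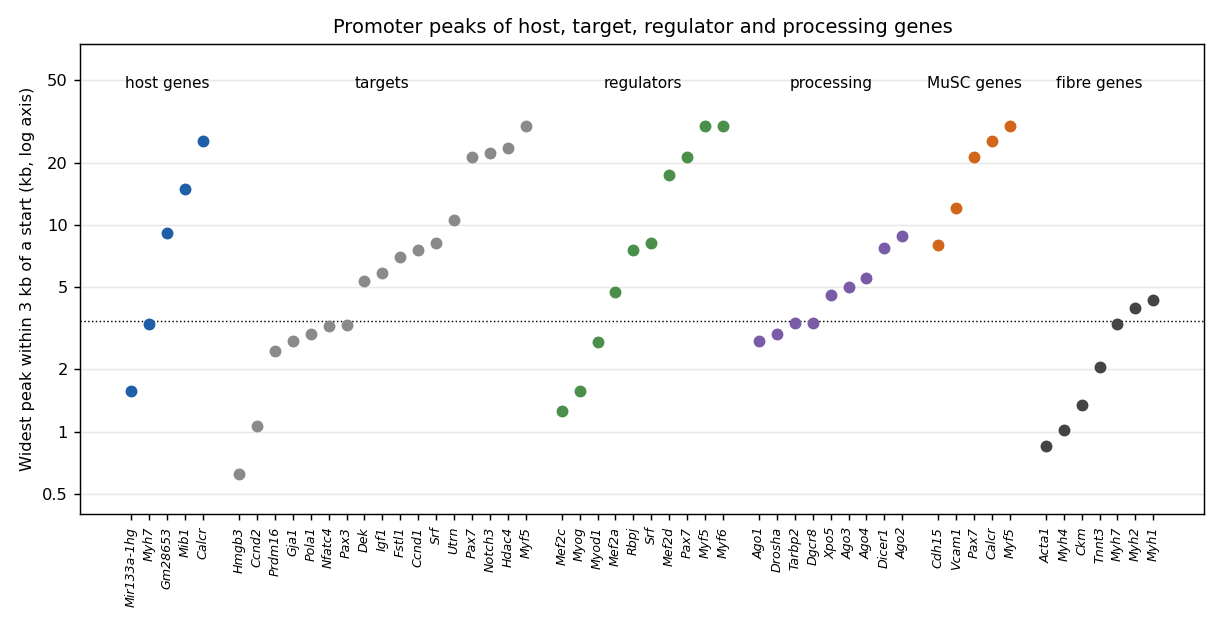
Each point is a gene and its widest peak within 3 kb of an annotated start, in kb on a log axis. Columns are grouped as hosts, targets, regulators, processing genes, MuSC genes and fibre genes, and the dotted line is the median over coding genes that have one, 3430 bp. AL805899.1 and Mir1a-1hg have no promoter peak and are not drawn. Calcr (25343 bp) is drawn among the hosts and the MuSC genes, and Myh7 (3304 bp) among the hosts and the fibre genes.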

How the data were processed

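Per the labels and the study's methods, the authors trimmed ChIP-seq reads (Ion Torrent) with Trim Galore after FastQC, aligned them with bowtie to mm10 keeping reads with a single alignment, marked duplicates with Picard, called peaks with MACS2, removed ENCODE blacklisted regions and merged peaks with GenomicRanges. Which libraries entered the merge was not given in the sources used here. The deposited file holds chromosome, start and end. Its score column, as deposited by the authors, was 0 in every row and was not used, and it held 0 columns of values per sample. Merging adds, widens and fuses intervals, and the single-alignment filter thins reads in repeated sequence.

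Starts were converted to count from 1. Members and other genes came from GENCODE vM21, hosts and sequences also from RefSeq, all on GRCm38. An overlap of 1 bp counted. The covered share is the percentage of the window, 20 kb each way plus the hairpin, in a peak, and a promoter peak lies within 3 kb of an annotated start. Peaks of chromosome 18 and peak centres with unknown bases were left out of the motif search. Interval functions were tested on simulated data. Mir497a was matched through a RefSeq synonym to Mir497. The genes named were the members, every gene over a hairpin, fixed lists of muscle and other microRNAs, targets, regulators and processing genes, the 5 microRNA genes with the highest covered share, and the 3 on each side of Mir489. Genes of MuSCs and fibres served as markers. Gata5, Ifne, Mhrt and Mir653 were named after their positions were seen. The members and lists were chosen with earlier results of these data known. No test was made, because the list has no values per sample. Alternatives were other windows, a minimum width of 500 bp, joined intervals, peak midpoints, hairpins singly or by cluster, and other promoter definitions. Python 3 scripts computed all values.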

Additional observations from a re-analysis of the deposited data

How the results depend on the processing

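Of 33 alternative values, 13 did not move and 20 did. The members with a peak were 6 with windows of 5 and 10 kb, with intervals of at least 500 bp and by peak midpoint, and 9 with windows of 50 and 100 kb (9 each). The median of the differentiation loci, 8.75%, became 16.7%, 9.14%, 13.0% and 11.0% with windows of 5, 10, 50 and 100 kb, and 8.61% with hairpins counted singly. Mir31 stayed at 0% up to 20 kb and had 1.86% and 0.930% at 50 and 100 kb. Mir489, at 29.7%, had 6.98%, 7.12%, 37.5% and 18.7% at 5, 10, 50 and 100 kb, and 29.9% with intervals less than 1 kb apart joined. At 5 and 10 kb Mir489 was thus below the median of the differentiation loci, and at 20 kb and beyond above it. The share of all microRNA genes with a peak, 61.7%, became 40.2%, 51.3%, 71.9% and 78.5% with those windows, 66.1% with 1 gene for each of 1802 clusters, and 75.4% over the genes with a RefSeq sequence entry, which was chosen after seeing the data. The 33 target, regulator and processing genes kept a promoter peak within 1 kb and at starts of protein-coding transcripts alone. The larger window and larger set of genes are part of each alternative's construction, and other causes were not tested. No paired analysis was possible because the file gives no measurement for a single library. For the same reason the planned comparison of Sirt6mKO with Control, with its alternatives that left out a replicate or used another tool, was not run. Library depth cannot be read from the file, and a missing peak does not show that H3K56ac was absent.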
